A study of Sus scrofa with 12 samples.

Results

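CNIH4, MIX23, DYNLRB1 and MT3 are 4 genes that were picked from the transcriptome of maturing porcine oocytes because their mRNA levels fell most steeply at 22h or at 46h of in vitro maturation. They are 4 of the 31908 gene identifiers listed in each library, and all 4 were among the 7013 genes that entered the fits, for which a mean of 1 FPKM or more was asked. MT3 passed that filter only through its values at 0h. FPKM scales the fragments of a gene by its transcript length and by library size, so that levels of different genes can be set beside each other. The choice rested on the levels at 0h, 22h and 46h themselves, and the falls of these genes are therefore given as a description, with no p-value.

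The study profiled oocytes of cumulus-oocyte complexes that had been aspirated from antral follicles of prepubertal gilts and matured in vitro for 0h, 22h or 46h. Cumulus cells were stripped off at each time point, and 20 denuded oocytes were pooled for each of the 12 libraries, 4 per stage. The complexes of all 3 stages were selected in the same way, and the maturation medium held follicular fluid, epidermal growth factor and gonadotropins. The 0h oocytes had no time in culture. Against 0h, elapsed time therefore cannot be told apart from exposure to that medium. No other treatment separated the groups. The labels give 22h for the middle stage, whereas the text deposited with the series gives 24h. The cDNA was primed from the poly(A) tail by the SMART-Seq2 method. Hence, fewer mRNA molecules and shorter poly(A) tails cannot be told apart, and a relative unit does not show the amount of RNA per oocyte.

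The 4 genes come from unrelated pathways. CNIH4 is a member of the cornichon family, transmembrane proteins that recruit cargo such as receptors into COPII vesicles leaving the endoplasmic reticulum. MIX23, formerly CCDC58, is a small protein of the mitochondrial intermembrane space with paired cysteine motifs that contributes to the import of proteins into mitochondria. DYNLRB1 is the roadblock light chain of cytoplasmic dynein, the motor that moves cargo towards the minus ends of microtubules and serves at the spindle. MT3 is a metallothionein, a cysteine-rich protein that binds zinc and copper and is best known from brain. A fully grown oocyte transcribes little, and during maturation many of its stored mRNAs are lost or lose their poly(A) tails. Elements of the 3′UTR take part in that control.

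Because the levels were read from poly(A)-primed cDNA, the ends of the 4 transcripts are shown first. They were read from the RefSeq models on the Sscrofa11.1 assembly, where all 4 genes lie on the + strand. The last 30 bases of each model are given 5′ to 3′, with a polyadenylation hexamer (AATAAA or ATTAAA) in capitals where the window held it.
CNIH4 (chr10:12705397-12705426): ttaccatataaaatatttaaaaaacatgaa
MIX23 (chr13:138178429-138178458): actATTAAAataattttctgactcagtgta
DYNLRB1 (chr17:37941822-37941851): ttctttaactaaaaataaccaaaacactta
MT3 (chr6:18636105-18636134): agtgacAATAAAtcctgtgaaaggcgtaaa
The hexamer began 27 bases from the end in MIX23 and 24 bases from the end in MT3, and the last 40 bases of the CNIH4 and DYNLRB1 models held neither form. Of the 5526 tested genes with a model and a 3′UTR of at least 30 bases, 73.7% held a hexamer in their last 40 bases. All motifs were searched on the sense strand only, and a match is a string of letters and not a site shown to be used.

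The 3′UTRs were also searched for the cytoplasmic polyadenylation element, spelled TTTTAT or TTTTAAT, which in oocytes is known to govern tail length. Among the 4 genes only the MIX23 model held this element, at 2 places, which are shown with 10 bases on either side and the element in capitals.
MIX23 (chr13:138178300-138178325): gtccaagaccTTTTATtgatttcagc
MIX23 (chr13:138178378-138178403): tcaactgctaTTTTATactgattctg
The elements began 149 and 71 bases from the transcript end. The element was present in 66.6% of all 3′UTRs and in the last 100 bases of 22.1%. The Pumilio-type motif TGTANATA occurred in the 3′UTR of MT3 only, and in 28.0% of all 3′UTRs. The motif ATTTA occurred in those of CNIH4 and DYNLRB1, and in 70.6% of all 3′UTRs. These shares were not compared by transcript length, and the 3′UTRs of the 4 genes were short.

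In the RefSeq annotation, CNIH4 spans chr10:12688833-12705426 with 5 exons and a transcript of 710 bases, of which 420 code for 139 residues and 170 form the 3′UTR. MIX23 spans chr13:138152426-138178458 with 5 exons and a transcript of 966 bases, 600 of them coding for 199 residues and 258 in the 3′UTR. DYNLRB1 spans chr17:37923451-37941851 with 4 exons and 663 bases, 291 of them coding for 96 residues and 333 in the 3′UTR. MT3 spans chr6:18634735-18636134 with 3 exons and 377 bases, 207 of them coding for 68 residues and 141 in the 3′UTR. All 4 transcripts were therefore short. Only 3.28% of the tested genes with a model had a shorter transcript than CNIH4, 7.50% than MIX23, 2.66% than DYNLRB1 and 0.223% than MT3, beside a median of 2929 bases. The 3′UTRs were also below the median of 903 bases.

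The libraries carried the markers of oocytes. Of 13 oocyte markers, 12 matched an identifier, and each reached a mean of 1 FPKM at 0h, with the highest for ZP4 (5615 FPKM), a zona pellucida protein. Their summed level lay between 18035 and 25114 FPKM at 0h, between 22245 and 33984 at 22h, and between 9379 and 14050 at 46h. The summed level of 17 matched cumulus and granulosa cell markers lay between 48.8 and 89.8 FPKM at 0h, between 57.8 and 88.7 at 22h, and between 118 and 144 at 46h, most of it from VCAN, a matrix proteoglycan. VCAN had 58.3 FPKM on average at 0h and 126 at 46h, when the 4 genes were lowest, whereas the other 16 markers together held between 7.71 and 19.75 FPKM at 0h, between 8.31 and 10.79 at 22h, and between 7.41 and 13.21 at 46h. INHA, NR5A1 and LHCGR were at 0 in every library. The summed level of 8 markers of other cells lay between 22.7 and 41.2 FPKM at 0h, between 42.8 and 49.0 at 22h, and between 33.6 and 35.0 at 46h, nearly all of it from EPCAM and PECAM1. PECAM1 had 9.29 FPKM on average at 0h and 22.1 at 46h, EPCAM 20.8 and 12.1, and CD14, CDH5, HBB and COL1A1 were at 0 in every library. Total FPKM lay between 697468 and 782309 at 0h, between 704433 and 773647 at 22h, and between 779556 and 802184 at 46h. Protein genes encoded by the mitochondrial genome took 1.79% to 3.76%, 8.06% to 12.02% and 12.8% to 16.7% of it in turn. The part of these shifts in the falls was not tested. The files give no read numbers, so the spread between the 4 libraries of a stage is the only error, and ± denotes SD over those libraries throughout.

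CNIH4 was among the abundant mRNAs of the oocyte before culture and was close to absent after it. Its level at 0h was 1002.5, 877.41, 1392.15 and 1718.96 FPKM in replicates 1 to 4. At 22h it was 513.26, 284.23, 288.88 and 295.39 FPKM, and at 46h 0.94, 1.79, 2.19 and 1.37 FPKM. All libraries of a later stage lay below all libraries of each earlier stage, and replicate 1 stood above the other 22h libraries. The mean level fell from 1248 ± 383 FPKM (n = 4) to 345 ± 112 and then to 1.57 ± 0.538 FPKM, that is to 27.7% ± 8.97 and to 0.126% of the mean at 0h. The mean at 46h was 793 times lower than at 0h and 220 times lower than at 22h. The gene ranked 81st by mean level among 15758 identifiers above 0 at 0h, 260th among 15572 at 22h and 5233rd among 14086 at 46h.

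MIX23 was the most abundant of the 4 genes, and it still held most of its level at 22h. The 0h libraries held 1226.04, 1288.42, 1495.91 and 2158.3 FPKM in replicates 1 to 4, the 22h libraries 1387.35, 1129.56, 791.22 and 693.28 FPKM, and the 46h libraries 3.28, 3.16, 2.37 and 3.57 FPKM. The 0h and 22h libraries overlapped, since 3 of the 4 libraries at 22h lay below the lowest at 0h while replicate 1 lay above replicates 1 and 2 of 0h. All libraries at 46h were far below the others. The mean was 1542 ± 427 FPKM at 0h, 1000.35 ± 319 at 22h and 3.10 ± 0.513 at 46h, or 64.9% ± 20.7 and 0.201% of the mean at 0h. The mean at 46h was 498 times lower than at 0h and 323 times lower than at 22h. MIX23 was the 63rd most abundant identifier at 0h, the 95th at 22h and the 4113th at 46h.

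DYNLRB1 fell by most of its level before 22h. Its values were 128.23, 120.39, 160.27 and 163.33 FPKM at 0h, 26.85, 4.3, 14.02 and 7.5 FPKM at 22h, and 1.05, 0.72, 0.87 and 0.46 FPKM at 46h, in replicates 1 to 4. The 3 stages did not overlap, but the 22h libraries were wide apart, the highest being 6.24 times the lowest. The means were 143 ± 21.9, 13.2 ± 9.98 and 0.775 ± 0.25 FPKM, so that 9.20% ± 6.98 of the mean at 0h was left at 22h and 0.542% at 46h. The mean was 10.9 times lower at 22h than at 0h, and 17.0 times lower at 46h than at 22h. Without 22h replicate 1, the highest of that stage, the 22h mean was 8.61 FPKM, and these ratios became 16.6 and 11.11. No other library left out moved a ratio of means of CNIH4, MIX23 or DYNLRB1 by more than 1.5 times.

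MT3 was the least abundant of the 4 genes and was listed at 0 in most libraries after 0h. It was at 6.93, 10.13, 18.31 and 25.01 FPKM in replicates 1 to 4 at 0h and at 1.87 FPKM in replicate 1 of 22h. The other 3 libraries of 22h and all 4 libraries of 46h listed it at 0. An FPKM of 0 in these files can be a failed estimate, since ACTB, which nearly every cell uses, was also listed at 0 in some libraries. Its 0h mean was 15.1 ± 8.16 FPKM, and no mean or fold is given for the later stages. Where differences or orders of MT3 are given below, libraries listed at 0 were taken as 0. Its values at 0h differed by 3.61 times between the highest and the lowest library, more than those of the other 3 genes.

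**Figure D1:**
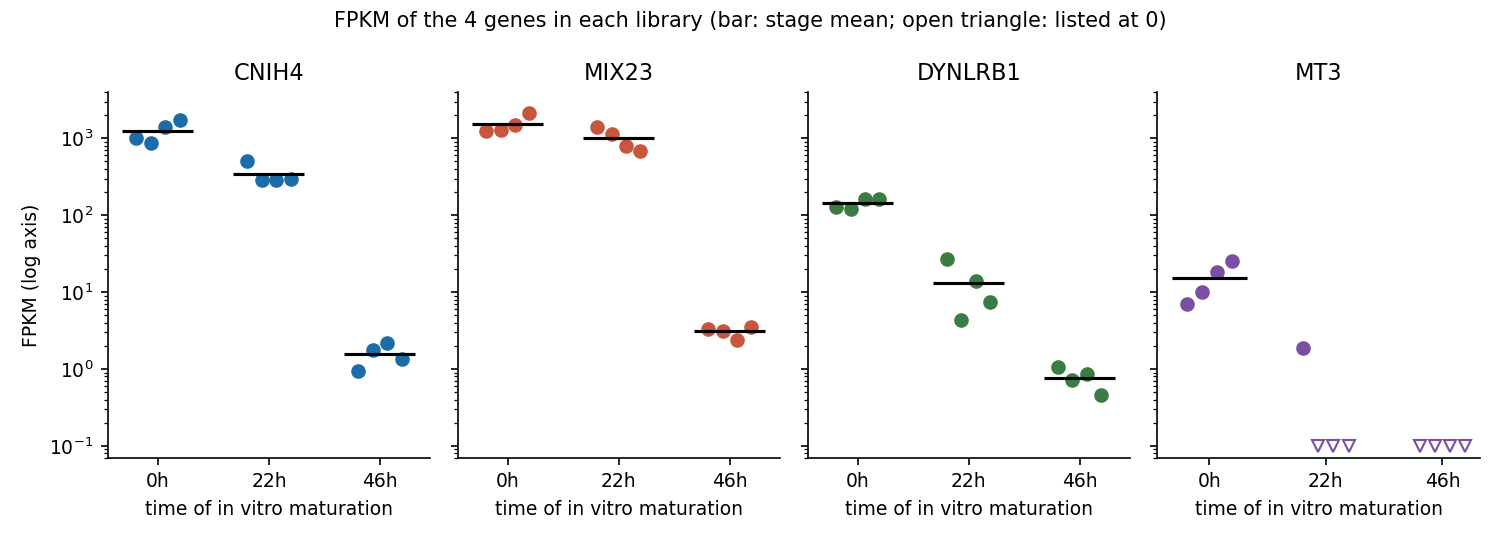
FPKM of CNIH4, MIX23, DYNLRB1 and MT3 in each of the 12 libraries by time of in vitro maturation, on a log axis; points are libraries (replicates 1 to 4 from left to right), bars are means of 4 libraries (none drawn where a library was listed at 0), and open triangles at the foot mark libraries listed at 0. CNIH4 and DYNLRB1 form 3 separate groups, MIX23 overlaps between 0h and 22h and drops at 46h, and MT3 has 1 library above 0 after 0h.

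Set beside each other as shares of their own 0h mean, DYNLRB1, CNIH4 and MIX23 differed in how much was left at 22h. DYNLRB1 was at 9.20% ± 6.98, CNIH4 at 27.7% ± 8.97 and MIX23 at 64.9% ± 20.7. Their ranges, 3.01% to 18.8%, 22.8% to 41.1% and 45.0% to 90.0%, did not overlap. These ranges take the 0h mean as fixed and leave out the spread at 0h. That spread, as SD, was 15.3% of the mean for DYNLRB1, 30.7% for CNIH4 and 27.7% for MIX23. The genes were picked for falls at 22h or at 46h, so nothing is read from the separation. At 46h these 3 genes were below 1% of their 0h means. MT3 is left out of these shares because of its libraries listed at 0, and its 1 library above 0 at 22h was at 12.4% of the 0h mean. By level, the order at 0h was MIX23, CNIH4, DYNLRB1 and MT3. The ranges of MIX23 and CNIH4 overlapped at 0h and no others did, and at 46h, with MT3 left out, only those of CNIH4 and DYNLRB1 did. Together the 4 genes made up between 0.317% and 0.520% of all FPKM at 0h, between 0.136% and 0.249% at 22h, and between 0.000657% and 0.000727% at 46h.

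**Figure D2:**
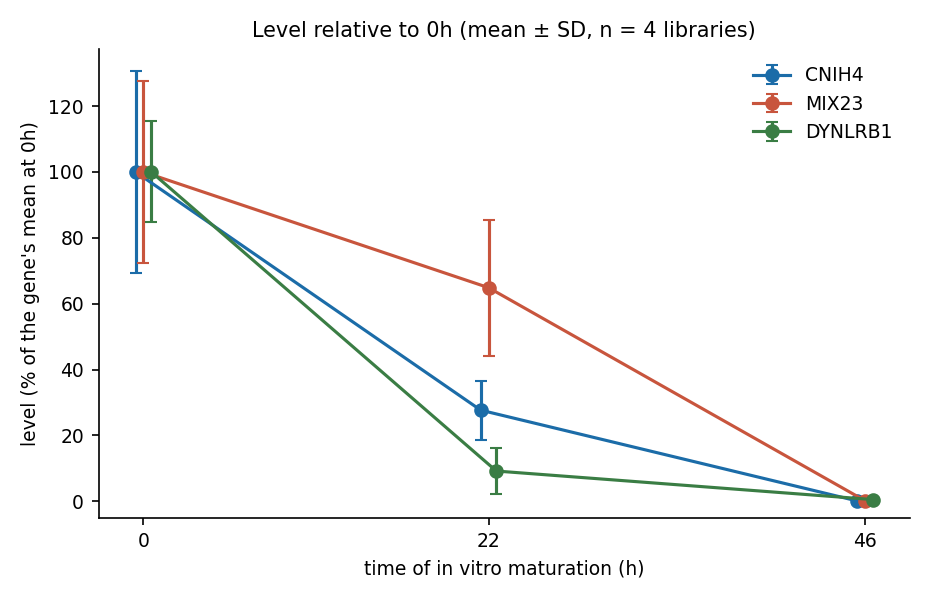
Mean level of CNIH4, MIX23 and DYNLRB1 as a percentage of its own mean at 0h, with error bars of SD over 4 libraries, against hours of in vitro maturation. At 22h the genes spread from 9.20% (DYNLRB1) to 64.9% (MIX23), and at 46h all 3 lie below 1%. MT3 is not drawn, since most of its later libraries were listed at 0.

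At 0h and 22h, the libraries in which the 4 genes were high were the same ones. Replicate 4 was highest for all 4 genes at 0h, and replicate 1 was highest for all 4 at 22h. Among the 1320 other genes that were called lower at 22h than at 0h, replicate 4 was highest at 0h for 56.0%, and at 22h replicate 1 was highest for 42.7% and replicate 3 for 44.8%. At 46h the highest library was replicate 3 for CNIH4, replicate 4 for MIX23 and replicate 1 for DYNLRB1. Without both libraries, the difference in log2(FPKM + 1) at 22h against 0h was −1.88 for CNIH4, −0.64 for MIX23, −3.96 for DYNLRB1 and −3.58 for MT3. The same differences with all libraries were −1.85, −0.64, −3.61 and −3.48.

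Across all genes tested, limma on log2(FPKM + 1) called genes that had an adjusted p below 0.05 together with a change of more than 1.5 times. At 22h against 0h, 18.9% of the 7013 genes were called lower and 7.84% higher, and CNIH4, DYNLRB1 and, with its libraries listed at 0 taken as 0, MT3 were among the lower ones. At 46h against 0h, 39.1% were called lower and 16.8% higher, and CNIH4, MIX23 and DYNLRB1 were among the lower ones, as was MT3 with every 46h library listed at 0. At 46h against 22h, 32.6% were called lower and 9.87% higher, and CNIH4, MIX23 and DYNLRB1 were among the lower ones. In the same 3 comparisons, the libraries of the later stage all lay below those of the earlier one for 18.6%, 39.2% and 35.4% of the genes tested, and for 3, 4 and 3 of the 4 genes, the first pair of counts including MT3 with its listed zeros. The genes were selected for these falls, so nothing follows from their counts.

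The 4 genes stood near the head of the order of falls in different comparisons, as they were picked to. At 22h against 0h, DYNLRB1 had the steepest fall of the 6252 tested genes with a name, with a difference of −3.61 in log2(FPKM + 1), and MT3 the third steepest with −3.48. That order rests on the pseudocount of 1, since with 0.1 the difference was −6.00 for MT3 and −3.74 for DYNLRB1. NDUFB7 (−3.49), NDUFA8 (−3.40) and ATP5MC1 (−3.39) were next to them, the former pair being complex I subunits and the latter a subunit of ATP synthase, and CNIH4 (−1.85) was only 177th and MIX23 (−0.64) 1240th. At 46h against 0h, CNIH4 was 2nd with −8.90 and MIX23 4th with −8.53. ATP5PD, another ATP synthase subunit, stood before them with −8.98, the ribosomal protein gene RPL23A between them with −8.83, and ATP5MC1 just behind with −8.04. DYNLRB1 was 23rd with −6.34.

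At 46h against 22h, MIX23 was 2nd with −7.89 and CNIH4 4th with −7.05, next to RPL23A (−8.12), ATP5PD (−7.40) and PAIP2 (−6.73), whose protein restrains translation by binding poly(A)-binding protein. DYNLRB1 was 250th with −2.73. In each comparison an identifier without a name was steeper than all of these. A difference of −2 or below was held by 137 of the 7013 genes at 22h against 0h (1.95%), by 1017 at 46h against 0h (14.5%) and by 588 at 46h against 22h (8.38%). The differences are on the log2(FPKM + 1) scale, which understates the change of a gene whose later level is near or below 1 FPKM. Places in these orders therefore depend on that scale. The 46h mean was 0.918 FPKM for RPL23A, 1.76 for ATP5PD and 1.57 for CNIH4.

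**Figure D3:**
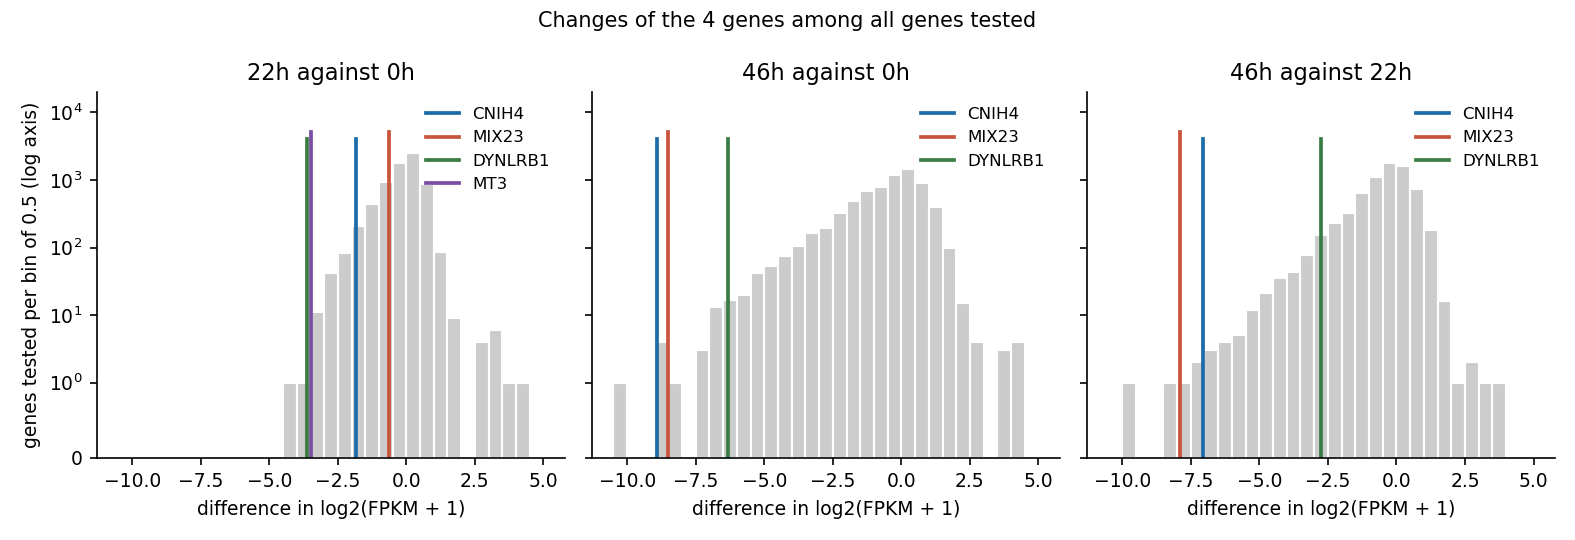
Number of genes tested per bin of 0.5 in the difference of log2(FPKM + 1), on a log axis, for the 3 comparisons, with vertical lines at the differences of the 4 genes; MT3 is drawn at 22h only, since it was listed at 0 in every 46h library. DYNLRB1 (−3.61) and MT3 (−3.48) lie at the lower end at 22h, and CNIH4 (−8.90) and MIX23 (−8.53) at the lower end at 46h against 0h.

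The scale of the whole comparison was not fixed by the unit. The median difference of all genes tested was −0.00 at 22h against 0h, −0.25 at 46h against 0h and −0.26 at 46h against 22h as deposited. It was 0.04, 0.06 and 0.02 after median-of-ratios scaling, and 0.14, 0.37 and 0.21 after quantile normalization. The share of called genes that were higher at 46h than at 0h went from 30.1% as deposited to 46.9% and 61.7% in turn, at 46h against 22h from 23.3% to 43.97% and 59.5%, and at 22h against 0h from 29.4% to 34.7% and 48.2%. The falls of CNIH4, MIX23 and DYNLRB1 kept their direction under every one of these scalings in all 3 comparisons, as did that of MT3 at 22h against 0h.

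Among the relatives of CNIH4, CNIH1 moved the other way. CNIH1, the family member that exports growth factor precursors, had 16.0 ± 5.13 FPKM at 0h (9.29 to 20.72), 19.2 ± 2.704 at 22h (16.12 to 22.42) and 29.9 ± 1.45 at 46h (28.57 to 31.49), and every 46h library was above every earlier one. It was called higher at 46h than at 0h (log2 change 0.91, SE 0.21, limma adjusted p = 0.0017), and not at 22h (0.29, adjusted p = 0.310). At 46h against 22h its change of 0.62 was also called (adjusted p = 0.0257). The latter call was lost without 22h replicate 1 (0.54, adjusted p = 0.0688), 22h replicate 2 (adjusted p = 0.0544), 46h replicate 2 (adjusted p = 0.0545) or 46h replicate 4 (adjusted p = 0.0613), in TPM (0.54, adjusted p = 0.0740) and with no filter on low values (adjusted p = 0.0575). CNIH3, which lies 50840 bases downstream of CNIH4, was listed at 0 in every library.

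Of the 21 other cornichon and cargo receptor genes listed, 12 were tested. At 46h against 0h, 4 were called lower and 2 higher, beside 39.1% and 16.8% of all genes tested, with a median log2 change of 0.19 beside −0.25 for all genes. BCAP29, a membrane protein of the endoplasmic reticulum, fell by 2.25 on the log2 scale (13.7 ± 1.47 to 2.14 ± 0.589 FPKM, limma adjusted p = 7.4e-08). ERGIC3, a receptor that cycles between the endoplasmic reticulum and the Golgi, fell by 2.07 (23.9 ± 5.40 to 4.95 ± 1.43 FPKM, adjusted p = 3.3e-06). TMED3 was called lower (−0.68), was not called after median-of-ratios scaling (−0.46) and turned to 0.021 under quantile normalization, and TMED5, also a p24 family cargo receptor, was called higher (0.72, adjusted p = 0.0015). LMAN2, a lectin chosen for mention after its values were seen, was the remaining gene called lower (−0.60), a call lost without 0h replicate 4 (−0.50), 46h replicate 1 (−0.56), 46h replicate 2 (−0.52) or 46h replicate 4 (−0.58), after median-of-ratios scaling (−0.20) or quantile normalization (−0.13), and in TPM without mitochondrially encoded genes (−0.51). In the comparison of 22h with 0h, 1 gene was called lower (BCAP29) and 3 higher (TMED3, LMAN2 and TMED10, the last also chosen afterwards), and at 46h against 22h 4 were called lower (BCAP29, ERGIC3, TMED3 and LMAN2) and 1 higher (CNIH1). Of all genes tested, 18.9% were lower and 7.84% higher in the former comparison, and 32.6% and 9.87% in the latter. The call of CNIH1 was lost in TPM, without a filter on low values, and without any 1 of 22h replicates 1 and 2 or 46h replicates 2 and 4. The last call of BCAP29 was lost under quantile normalization (−0.41, adjusted p = 0.0613). The 22h call of TMED3 was lost without 22h replicate 3 (0.57), that of LMAN2 without any 1 of 0h replicates 1 to 3 or 22h replicates 3 and 4 (0.50 at the lowest), and that of TMED10 without any 1 of replicates 1 and 2 of either stage (0.48 at the lowest). After median-of-ratios scaling and quantile normalization, the 46h against 0h counts were 2 lower with 5 and 7 higher, and the median at 46h against 22h turned from −0.12 to 0.19 and 0.27. The count higher at 46h against 22h was 2 and 3 in turn. The lowest change among the tested genes of this list at 46h against 0h was −2.25. CNIH4 itself was picked for its fall, so nothing is read from its fall being steeper.

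Cornichon cargo is carried by the COPII coat. Of 11 tested genes of the coat, 4 were called lower and 1 higher at 46h against 0h, beside 39.1% and 16.8% of all genes tested, with a median of −0.49 beside −0.25. The fall was steepest for SAR1B and SAR1A, the small GTPases that start the coat. SAR1B went from 54.0 ± 7.26 FPKM at 0h to 9.04 ± 3.95 at 22h and 3.23 ± 0.790 at 46h (−3.71, limma adjusted p = 1.0e-08), and SAR1A from 57.3 ± 4.29 to 43.4 ± 9.33 and 7.75 ± 1.86 (−2.76, adjusted p = 1.3e-08). SEC23B, of the inner coat, was lower by −2.13, and SEC24B, chosen afterwards, by −0.71, which was not called after median-of-ratios scaling (−0.52) and became 0.0069 under quantile normalization. TFG, which organises the sites where the vesicles form, was higher (1.27, adjusted p = 0.0095). At 22h against 0h 3 genes were called lower, SAR1B, SEC23B and PREB, the guanine exchange factor of SAR1, and at 46h against 22h 4, SAR1A, SAR1B, SEC23B and SEC24D, with 0 higher in either by limma (2 and 1 at an unadjusted p below 0.05). All genes tested had 18.9% lower and 7.84% higher at 22h against 0h, and 32.6% and 9.87% at 46h against 22h. The count of 0 higher at 22h was not stable. It was 1 with a pseudocount of 0.1, in TPM, after median-of-ratios scaling, or without any 1 of 0h replicates 1, 3 and 4 or 22h replicates 2 and 3, and 2 without 22h replicate 1, under quantile normalization, or in TPM without mitochondrially encoded genes. For 46h against 22h the count was 1 after median-of-ratios scaling, in a fit of those 2 stages alone, or without any 1 of 0h replicate 4 and 22h replicates 3 and 4. Under quantile normalization 2 were called lower and 2 higher at 46h against 22h, and SEC23B (−0.53) and SEC24D (−0.54) were no longer called. PREB (−0.62) and SEC24D (−1.06) were chosen afterwards, and the call of PREB was lost without 0h replicate 4 (−0.53), 22h replicate 2 (−0.52) or 22h replicate 4 (−0.58), and after median-of-ratios scaling (−0.57) or quantile normalization (−0.51). The list median at 46h against 0h changed sign with quantile normalization, to 0.19.

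The intermembrane space list held the disulfide relay itself and the proteins imported by it. Of 30 genes listed beside MIX23, 23 matched and 18 were tested. At 22h against 0h, 9 were called lower and 1 higher, at 46h against 0h 13 were called lower and 0 higher, and at 46h against 22h 11 lower and 0 higher. Of all genes tested, 18.9%, 39.1% and 32.6% were called lower and 7.84%, 16.8% and 9.87% higher in these comparisons. At an unadjusted p below 0.05 in limma, the higher genes would be 1, 0 and 1. The medians were −0.94, −1.91 and −0.94, beside −0.00, −0.25 and −0.26 for all genes tested, and at 46h against 0h the median was still −1.61 after median-of-ratios scaling and −1.29 after quantile normalization. At 46h against 22h quantile normalization left 5 genes called lower and a median of −0.38. NDUFB7, a complex I subunit with paired cysteines, went from 209 ± 104 FPKM at 0h to 22.0 ± 13.9 at 22h and 0.760 ± 0.693 at 46h (−6.87, limma adjusted p = 1.8e-07). NDUFA8, of the same kind, went from 996 ± 159 to 112 ± 71.7 and 9.06 ± 0.598 FPKM (−6.62, adjusted p = 2.8e-09). COA4, a cytochrome c oxidase assembly factor, went from 345 ± 94.9 to 74.1 ± 23.1 and 8.77 ± 1.31 FPKM (−5.12, adjusted p = 4.5e-10). Unlike MIX23, these 3 genes had lost most of their level by 22h. CHCHD2, the gene called higher at 22h (0.74) and named after its values were seen, lost that call under quantile normalization (0.56) and was far above the rest at 46h with 1772 ± 226 FPKM. With median-of-ratios or quantile scaling, 2 genes of the list were called higher at 46h against 0h, and without 0h replicate 4, 1 was. Under either scaling or without 22h replicate 3, 1 gene was called higher at 46h against 22h.

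Among the other dynein subunits, the light chains differed in direction. Of 7 genes tested, 3 were called lower and 1 higher at 46h against 0h, shares like those of all genes tested (39.1% and 16.8%), with a median of −0.01 that was 0.39 after median-of-ratios scaling. DYNLL1, the light chain shared by dynein and other complexes, went from 373 ± 180 FPKM at 0h to 154 ± 15.9 at 22h and 36.4 ± 4.92 at 46h (−3.20, limma adjusted p = 1.7e-07), and its paralog DYNLL2 from 133 ± 6.90 to 54.4 ± 16.2 and 17.5 ± 3.27 FPKM (−2.87, adjusted p = 1.8e-08). Neither fell to the share that DYNLRB1, a gene picked for its fall, reached. DYNC1LI1, a light intermediate chain, was lower by −1.13 (adjusted p = 1.3e-05) and not called under quantile normalization (−0.37). DYNLT1, of the third light chain family, was higher (0.90, adjusted p = 0.0168) and lost that call without 46h replicate 1 (0.66, adjusted p = 0.0630), which left no gene of the list called higher. DYNLRB2, the other roadblock chain, was listed at 0 in every library. Already at 22h, DYNLL1 and DYNLL2 were called lower and DYNLT1 higher. The DYNLT1 call was lost without 22h replicate 2 (0.80) or 22h replicate 4 (0.77), and with no filter on low values (0.97). The count higher at 22h was 2 without 0h replicate 1, under quantile normalization, or in TPM without mitochondrially encoded genes. At 46h against 22h 3 genes (DYNLL1, DYNLL2 and DYNC1LI1) were called lower and 0 higher, with 2 higher at an unadjusted p below 0.05. The shares of all genes tested were 18.9% lower and 7.84% higher at 22h, and 32.6% and 9.87% between 22h and 46h. After median-of-ratios scaling or quantile normalization 2 were called higher there, and DYNC1LI1 was not called under quantile normalization (−0.28).

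Of 11 tested genes of dynactin, the dynein activator, and of dynein adaptors, 6 were called lower and 1 higher at 46h against 0h (39.1% and 16.8% of all genes tested), with a median of −0.91 that was −0.68 after median-of-ratios scaling and −0.23 after quantile normalization. DCTN3 fell by 2.27 (11.09 ± 4.07 to 1.495 ± 0.763 FPKM, limma adjusted p = 5.9e-06) and DCTN6 by 1.79, from 552 ± 33.8 to 160 ± 16.5 FPKM (adjusted p = 1.1e-07). NDEL1, which links dynein to LIS1, first rose from 29.05 ± 8.41 to 75.0 ± 12.6 FPKM at 22h (1.37, adjusted p = 0.00031) and then fell to 5.56 ± 0.722 at 46h (−2.15 against 0h, adjusted p = 6.2e-07). DCTN5 was higher at 46h (0.66, adjusted p = 0.0148), a call lost without 0h replicate 1 (0.52) or 46h replicate 3 (0.55). Between 0h and 22h, DCTN3 was the gene called lower and NDEL1 the gene called higher. The DCTN3 call was lost without 22h replicate 2 (−0.78) and with no filter on low values (−0.96). Without 0h replicate 4, 2 were called lower and 2 higher. Under quantile normalization or in TPM without mitochondrially encoded genes, 2 were called higher. At 46h against 22h, 6 were called lower and 1 (DCTN5) higher, and 2 were higher under quantile normalization. Among all genes tested, 18.9% were lower and 7.84% higher in the former of these comparisons, and 32.6% and 9.87% in the latter.

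MT3 had 1 relative that matched an identifier by name. MT1X, a metallothionein found in many tissues, was at 88.7 ± 39.9 FPKM at 0h, 114 ± 35.0 at 22h and 119 ± 10.6 at 46h. It was not called in any comparison (log2 changes 0.42, 0.53 and 0.11, limma adjusted p = 0.278, 0.116 and 0.768). Its rise at 46h against 0h was called after median-of-ratios scaling (0.93, adjusted p = 0.0063), after quantile normalization (0.87, adjusted p = 0.0166) and without 0h replicate 3 (0.78, adjusted p = 0.0192). MT3 lies in the metallothionein cluster of chromosome 6 beside MT4, MT-2B, MT1D and MT1A. No identifier matched these by name, and they could be among the identifiers without a name.

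Genes of zinc and copper handling moved both ways. Of 14 tested, 3 were called lower and 6 higher at 46h against 0h (39.1% and 16.8% of all genes tested), with a median of −0.07 that was 0.27 after median-of-ratios scaling and 0.57 after quantile normalization. The zinc importer SLC39A8 rose from 31.7 ± 15.1 to 102 ± 17.3 FPKM (1.79, limma adjusted p = 0.00054), the zinc exporter SLC30A1 from 25.2 ± 15.1 to 64.0 ± 15.3 FPKM (1.51, adjusted p = 0.0028), and SLC39A12 from 5.84 ± 1.08 to 17.3 ± 1.55 FPKM (1.43, adjusted p = 1.5e-06). CCS, the copper chaperone of superoxide dismutase, was lower (−1.54, adjusted p = 0.00021), as were SLC39A14 (−0.92) and the copper pump ATP7B (−0.89), and the last pair was not called under quantile normalization (−0.26 and −0.22). At 22h against 0h, 2 were called lower and 2 higher, namely CCS and SLC39A6, and SLC39A12 and SLC30A6. SLC39A6 and SLC30A6 were named after their values were seen, and the call of SLC39A6 (−0.61) was lost without 0h replicate 1 (−0.58), 22h replicate 1 (−0.57) or 22h replicate 4 (−0.57), after median-of-ratios scaling (−0.56) or quantile normalization (−0.47), and in TPM without mitochondrially encoded genes (−0.55). At 46h against 22h, 1 was called lower (ATP7B) and 4 higher (SLC39A8, SLC30A1, SLC39A12 and SLC39A10, the last chosen afterwards), of which SLC39A12 was not called in TPM (0.56). Beside these counts stand 18.9% lower and 7.84% higher among all genes tested at 22h against 0h, and 32.6% and 9.87% at 46h against 22h. Under quantile normalization 7 were higher in the latter comparison. Its count lower was 2 with a pseudocount of 0.1 or without 22h replicate 1. It was 0 with a mean of at least 5 FPKM, a filter that leaves out ATP7B.

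**Figure D4:**
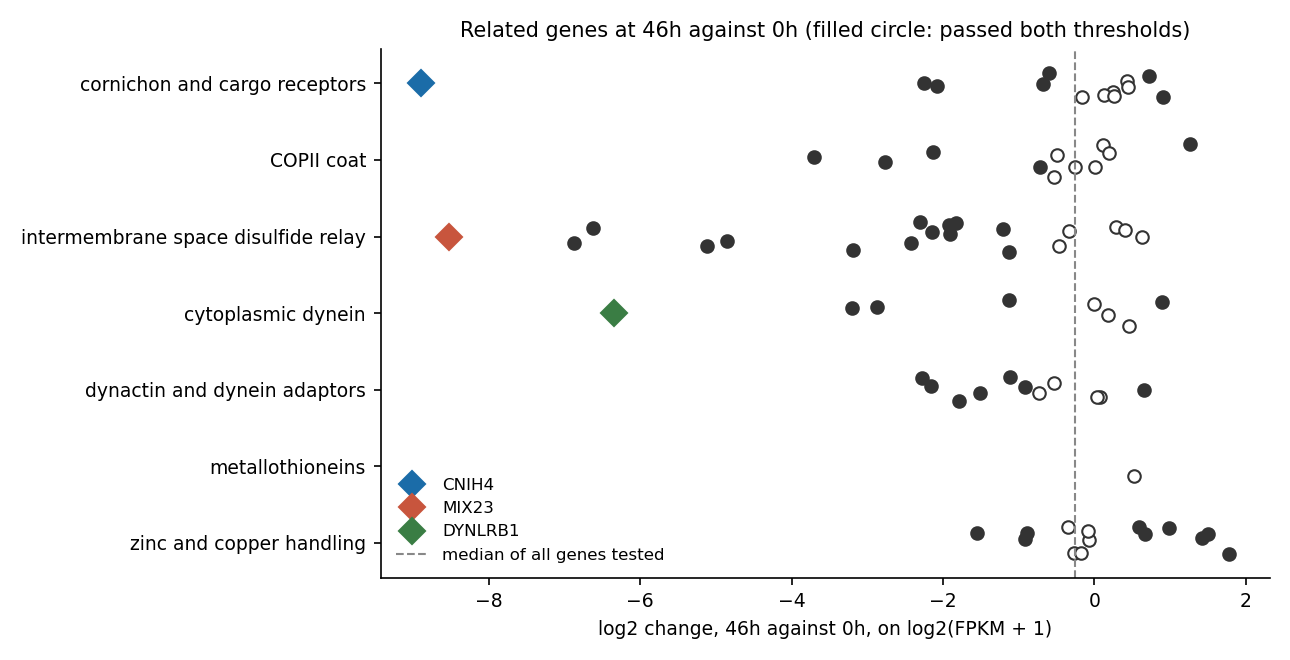
Log2 change at 46h against 0h on log2(FPKM + 1) for each tested gene of 7 lists; filled circles passed both limma thresholds, open circles did not, diamonds mark CNIH4, MIX23 and DYNLRB1 beside their lists, and the dashed line is the median of all genes tested (−0.25). CNIH4, MIX23 and DYNLRB1, which were picked for their falls, lie left of every listed relative in their rows. MT3 is not drawn because it was listed at 0 at 46h. TMED3 and SEC24B, among the filled circles near the line, changed sign under quantile normalization.

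The genes whose levels ran most alike over the 12 libraries differed between the 4. Likeness was measured by Pearson's r of log2(FPKM + 1) against the other named genes tested, and since the 12 libraries share 3 stages, high values are common. CNIH4 was most like TMSB10, an actin-binding peptide, and SSBP1, the mitochondrial single-stranded DNA-binding protein (r = 0.997 each), followed by RPS25, MYL6 and TSPAN31. MIX23 was most like DPM1, of dolichol-phosphate mannose synthesis, and RPL23A (r = 0.997 each), followed by NDUFAB1, PARK7 and PDCD5. DYNLRB1 was most like NDUFA8 (r = 0.996), followed by TMEM179B, FAM8A1, DNAJC18 and KIAA1143. MT3 was most like TSACC, a testis chaperone partner (r = 0.982), followed by UBE2L3, NDUFS3, PNPLA4 and LYRM1.

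TSACC, with 13.6 ± 7.10 FPKM at 0h, was like MT3 listed at 0 in every 46h library. RPL23A shared the late fall of MIX23, with 864 ± 137 FPKM at 0h, 530 ± 129 at 22h and 0.918 ± 0.448 at 46h. Among the 4 genes, CNIH4 and MIX23 were closest (r = 0.989), and MIX23 was 47th among the genes most like CNIH4. DYNLRB1 and MT3 followed (r = 0.917), then CNIH4 and DYNLRB1 (r = 0.907) and MIX23 and DYNLRB1 (r = 0.845). CNIH4 and MT3 (r = 0.712) and MIX23 and MT3 (r = 0.617) were least alike. The 4 genes were picked for falling most at 22h or at 46h in these same libraries. Nothing is therefore read from which pairs were closest. With a pseudocount of 0.1 in place of 1, 2 of the 5 genes named for MIX23, 2 of those for DYNLRB1 and 3 of those for MT3 were still among the 5 most alike. After median-of-ratios scaling, 3 of the 5 genes named for MIX23 were.

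Short transcripts fell more often than long ones, and the 4 genes are short. A RefSeq model was matched for 5827 of the 7013 tested genes (83.1%). In the shortest of 4 length classes of like size, 1453 genes with transcripts of 135 to 1685 bases not counting the 4, 33.2% were called lower at 22h against 0h, 56.1% at 46h against 0h and 47.1% at 46h against 22h. In the longest class, of transcripts from 4869 bases, the shares were 10.4%, 26.2% and 20.9%. The median difference at 46h against 0h was −0.96 in the shortest and 0.00 in the longest class, and it was −0.66 and 0.29 after median-of-ratios scaling. All 4 genes lay in the shortest class, and the part of transcript length in their falls was not tested.

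**Figure D5:**
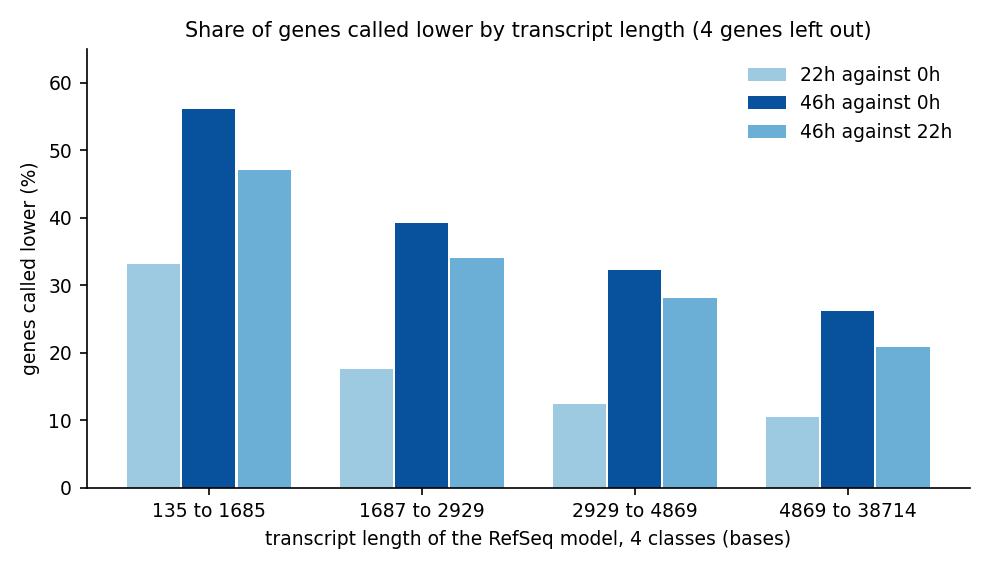
Percentage of tested genes called lower in each of 4 classes of RefSeq transcript length, for the 3 comparisons, with the 4 genes left out. The shares drop from the shortest class (33.2%, 56.1% and 47.1%) to the longest (10.4%, 26.2% and 20.9%).

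Genes beside the 4 on the chromosome moved in both directions. Within 100 kb lay 25 annotated genes, none overlapping, of which 10 matched an identifier and 9 were tested. FAM162A, a mitochondrial protein gene that starts 598 bases from MIX23 on the opposite strand, went from 647 ± 98.4 FPKM at 0h to 148 ± 63.8 at 22h and 23.6 ± 4.08 at 46h, and was called lower at 22h against 0h (−2.20, limma adjusted p = 3.5e-05) and at 46h against 0h (−4.72, adjusted p = 1.2e-09). It had thus lost most of its level at 22h, when MIX23 still held 64.9%. Beside CNIH4, the call for NVL was lower at 46h against 0h (−1.65, adjusted p = 9.3e-06), and WDR26 was not called in any comparison. Beside DYNLRB1, PIGU was not called in any comparison, ITCH was called higher (0.82) and MAP1LC3A lower (−0.90) at 46h against 0h. The call of MAP1LC3A was lost without 0h replicate 1 (−0.85), 0h replicate 4 (−0.75), 46h replicate 1 (−0.76) or 46h replicate 2 (−0.68), and after median-of-ratios scaling (−0.66) or quantile normalization (−0.19). With no filter on low values MAP1LC3A was not called either (limma adjusted p = 0.0815). KPNA1, beside MIX23, was called lower at 46h against 0h (−0.93), and not after quantile normalization (−0.19). Beside MT3, BBS2 was called higher at 22h (1.05) and lower at 46h (−1.86), and NUP93 higher at both (0.82 and 0.91).

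The transcripts of MIX23 and CNIH4 had partial matches elsewhere in the genome. With matches of at least 150 bases and 80% identity, the MIX23 transcript had 4, the longest at chr9:11118061-11118753 with 91.0% identity over 699 bases, or 72.2% of the transcript, and the most alike at chr13:138211215-138211523 with 94.2% over 311 bases. CNIH4 had 1, at chr13:88105581-88106155, with 80.4% identity over 602 bases. DYNLRB1 and MT3 had none. RSEM divides reads that align to several annotated transcripts by an estimate of their source. Whether these matches are annotated, or share reads with MIX23 or CNIH4, was not tested. The levels of both genes could be uncertain to that extent.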

How the data were processed

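The transcriptomes of 12 libraries of porcine oocytes were used, 4 for each of the 3 times of culture that the labels give (0h, 22h and 46h). The authors trimmed the reads, aligned them to Sscrofa11 with STAR and deposited 1 FPKM value per Ensembl identifier and library, made with RSEM. Per the submitters' processing notes, FastQC, Trim Galore and HTSeq were also used. The counts are not used here, read depth is unknown, and the low FPKM values gave no clear read steps.

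Identifiers were named from the RefSeq annotation of Sscrofa11.1 (15029 of 31908) and, for 169 more, DYNLRB1 included, from the gene list supplied with the study. FPKM values were taken as log2(FPKM + 1). The 7013 genes whose mean reached 1 FPKM were fitted with limma 3.58.1 in R 4.3.3 (trend, all 12 libraries, stage as the only factor). Two-sided p-values were adjusted over all genes tested by the Benjamini-Hochberg method, and a call needed an adjusted p under 0.05 and a fold change over 1.5. The fit was tested on simulated data. The labels do not say whether replicates were separate cultures, so p-values measure the spread between these samples only.

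The 4 genes and the lists were chosen with earlier results of these data known. Genes named are the 4, their measured family members, up to 3 called genes with the largest fall and rise at 46h against 0h per list, the 5 most alike per gene, the 3 next in the order of falls, and leading markers. Others are said to be chosen afterwards, which also holds for the neighbouring genes. Alternatives were another pseudocount or filter, other scalings, fits of fewer stages, a replicate block and each library left out. Leaving out 0h replicate 4 and 22h replicate 1 together was added after seeing the data. Copies were sought with BLAST 2.17.0, tables made with Python 3.11.15 (pandas 2.3.3, numpy 2.4.6) and figures with matplotlib 3.10.9.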

Additional observations from a re-analysis of the deposited data

Results flagged for a closer look

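Within the 4 libraries of a stage, 17 groups of values of the 4 genes and their named family members were searched for a library far from the others by Dixon's criterion, and chance picks out about 1 in 20 groups. The CNIH4 level of 513.26 FPKM in 22h replicate 1 stood apart from the other 22h libraries, with a gap of 0.951 of the range. The MT3 level of 1.87 FPKM in the same library also met the criterion, but with the other 3 libraries listed at 0 any value above 0 would, so nothing is read from it. No explanation was tested.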

How the results depend on the processing

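The number of genes called at 46h against 0h was 2546 with a mean of at least 5 FPKM, a filter that tests fewer genes, instead of 3922, and all other counts of called genes stayed within 1.5 times. Of the changes of the 4 genes under all alternatives, 211 moved by less than 1 SD between replicates and 9 by more, none with a change of sign. With a pseudocount of 0.1, CNIH4 was at −9.55 (46h against 0h) and −7.70 (46h against 22h), MIX23 at −8.89 and −8.25, DYNLRB1 at −7.39 and −3.65, and MT3 at −6.00 (22h against 0h), as the construction of the scale implies for low levels. With quantile normalization, CNIH4 was at −8.49 at 46h against 0h and MIX23 at −7.44 at 46h against 22h. List counts at 46h against 0h followed the scaling. After median-of-ratios scaling, 2 cornichon and cargo receptor genes were lower and 5 higher, and 2 genes each were higher for COPII, the disulfide relay and dynein. After quantile normalization, 2 cornichon and cargo receptor genes were lower and 7 higher, 4 COPII, 2 relay, 3 dynein and 2 dynactin genes were higher, and 1 zinc and copper gene was lower. With TPM 0 dynactin genes were higher. With a mean of at least 5 FPKM 0 zinc and copper genes were lower, since that filter leaves out CCS, SLC39A14 and ATP7B. Leaving out a library in turn gave 0 to 1 relay, 0 to 1 dynein and 0 to 1 dynactin genes higher, and leaving out both 0h replicate 4 and 22h replicate 1 gave 1 relay gene higher. Quantile normalization turned TMED3 (0.021) and SEC24B (0.0069) at 46h against 0h, and MT1X at 46h against 22h ranged from −0.029 to 0.29 with a library left out, turning without 22h replicate 4. Except where stated, the cause was not tested. Replicate numbers were not taken as pairs, since in no comparison was every correlation of same-numbered deviations over 0.1 (−0.47, 0.08, −0.19 and −0.46 at 22h against 0h, −0.24, 0.08, −0.04 and −0.28 at 46h against 0h, 0.38, 0.01, 0.21 and 0.13 at 46h against 22h), and with a replicate block 1801, 3894 and 2933 genes were called instead of 1873, 3922 and 2975. Depth is unknown, so no limit of detection is given for values listed at 0.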
